A study of Mus musculus with 64 samples.

Results

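Fatty acid oxidation and ketone body genes were followed in mouse colon after a pinch biopsy, a small endoscopic wound of the mucosa. The set held 32 genes, taken by symbol from the 23990 symbols present in every library, and all 32 were found. They cover the transcriptional regulators of the pathway, fatty acid uptake and activation, the carnitine shuttle, the enzymes of mitochondrial and peroxisomal beta-oxidation, electron transfer, ketone body handling, and 3 genes that set fuel choice or lipid supply. Membership is by gene function and rests on no threshold on a measured value, though the set was drawn up with earlier results of these data known.

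Colonocytes, the absorptive cells of the colon surface, burn short-chain fatty acids made by gut bacteria, butyrate above all, as their main fuel. Long-chain fatty acids are activated to acyl-CoA esters, carried into mitochondria as carnitine esters, and shortened by repeated rounds of dehydrogenation, hydration, a second dehydrogenation and thiolysis. The acetyl-CoA produced enters the citric acid cycle or is turned into ketone bodies, and the nuclear receptor PPARα together with its coactivator PGC-1α drives transcription of much of the pathway.

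The libraries were poly(A) RNA-seq of C57BL/6 colon and fell into a pair of cohorts. In the time course, wound beds were set against normal colon of sham-treated mice. There were 6 biopsies and 4 shams at 1 h, 5 of each at 6 h, 6 biopsies and 5 shams at 3 d, and 5 of each at 6 d. In the second cohort, taken 6 h after biopsy per the labels' protocol, mice had broad-spectrum antibiotics in their drinking water or did not. Its arms are titled abx (5 biopsies, 6 shams) and veh (6 and 6), but their condition labels say the opposite of the titles: control for abx, antibiotics for veh. Titles are used below as names only, and nothing is said of which arm had the drug. The labels do not give the sex or age of the mice, nor whether a biopsy and a sham came from 1 animal, so p-values measure the spread between these samples.

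Values are FPKM, fragments scaled by transcript length and by the mapped fragments of the library. Differences are on the log2(FPKM + 1) scale, which understates changes of weakly expressed genes, and a gene was called at an adjusted p under 0.05 (limma, Benjamini-Hochberg over all genes tested). Libraries summed to 414317.9 to 522098.3 FPKM in the time course and 229751.6 to 266645.6 FPKM in the arms, so levels are compared only within a cohort. Absolute read depth is unknown. Relative depth was estimated from the most common ratio of very low FPKM values between libraries, taken to stand for 1 read in each. By this estimate the deepest library held 1.54 times the reads of the shallowest in the time course and 1.63 times in the arms. In bulk tissue, fewer cells of a type and less RNA per cell cannot be told apart. Adipocyte markers summed above 30 FPKM in 4 libraries (biopsy 4 at 1 h, biopsy 3 at 6 h, sham 5 at 6 d and veh-titled sham 5), and B cell markers in another 4 (sham 1 at 1 h, sham 2 and biopsy 3 at 6 d, abx-titled sham 3). Counts are given without these libraries where they move.

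Of the 32 genes, 31 passed the filter of 1 FPKM in at least 4 libraries in each cohort. The exception was Fabp1, the liver-type fatty acid binding protein, which was listed at 0 in 30 of 41 time-course libraries and 20 of 23 arm libraries and never exceeded 0.0978 FPKM. Every library reached 1 FPKM for 28 genes in the time course and for 27 in the arms. Ppara passed in the arms through its shams alone (6 shams, 0 biopsies) and Angptl4 through its biopsies alone (11 biopsies, 0 shams), so their arm calls, which stand in the counts given for the arms, are no support for a difference. In 6 h shams the highest median levels belonged to Hadh at 173 FPKM, Plin2 at 135 FPKM, Etfb at 117 FPKM and Echs1 at 90.7 FPKM. The lowest among the genes tested were Ppara at 1.50 FPKM, Angptl4 at 0.549 FPKM and Pdk4 at 0.522 FPKM.

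Promoter windows from RefSeq (GRCm38.p6, 250 bases before to 50 after the start) were available for 27 of the 32 genes. They were searched on both strands for AGGTCA, the 6-base motif bound by PPARs and related nuclear receptors (here, the PPAR motif), for its extended form TCAAGGTCA, for a direct repeat of it with a 1-base spacer allowing at most 1 mismatch, and for ACGTG, the core of the hypoxia response element. The extended form contains the PPAR motif. The PPAR motif was present in 7 of 27 genes (25.9%) against 18.1% of 27018 genes with a window. Those genes were Cd36, Fabp1, Plin2, Cpt1a, Acadvl, Acadm and Echs1. The extended form matched 0 of 27 (0.466% of genes) and the direct repeat 1 of 27, Fabp1 (0.644% of genes). ACGTG matched 4 of 27, namely Ppargc1a, Plin2, Acadvl and Pdk2 (14.8%, against 21.8% of genes). Acadm and Echs1 are shown as beta-oxidation enzymes with AGGTCA whose RNA fell at 6 h, and Pdk2 as the gene with the largest fall at 6 h. Of the other genes with AGGTCA, Cd36, Plin2, Cpt1a and Acadvl differed by -0.57, -0.38, -0.37 and -0.26 at 6 h. Whether matches go with the falls was not tested. Capitals mark AGGTCA in Acadm (reverse strand) and Echs1, and in Pdk2 the palindrome made by ACGTG on both strands; a match is a description of letters, not of binding.
Acadm (chr3:153944594-153944893, minus strand): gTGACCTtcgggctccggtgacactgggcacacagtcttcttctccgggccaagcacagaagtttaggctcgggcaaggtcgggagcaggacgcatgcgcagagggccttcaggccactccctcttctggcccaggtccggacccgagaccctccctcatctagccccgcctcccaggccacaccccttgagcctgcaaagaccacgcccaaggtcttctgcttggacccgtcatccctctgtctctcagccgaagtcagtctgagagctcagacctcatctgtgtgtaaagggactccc
Echs1 (chr7:140116372-140116671, minus strand): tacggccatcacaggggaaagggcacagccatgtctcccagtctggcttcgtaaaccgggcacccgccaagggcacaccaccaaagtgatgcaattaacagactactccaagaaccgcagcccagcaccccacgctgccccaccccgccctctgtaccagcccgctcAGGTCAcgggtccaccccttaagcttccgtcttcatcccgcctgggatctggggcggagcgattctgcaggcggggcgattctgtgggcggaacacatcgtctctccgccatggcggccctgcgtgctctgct
Pdk2 (chr11:95041322-95041621, minus strand): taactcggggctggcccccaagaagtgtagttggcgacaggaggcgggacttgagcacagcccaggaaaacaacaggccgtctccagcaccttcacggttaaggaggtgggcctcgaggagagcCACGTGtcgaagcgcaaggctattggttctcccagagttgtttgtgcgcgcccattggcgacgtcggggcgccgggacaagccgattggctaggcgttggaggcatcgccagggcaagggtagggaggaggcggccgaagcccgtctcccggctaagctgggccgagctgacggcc

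The largest response of the pathway was at 6 h. Of the 31 genes tested, 26 were lower and 3 higher in biopsies than in shams, or 83.9% lower and 9.7% higher, whereas 43.2% of all 13285 genes tested were lower and 24.3% higher. The median log2 difference of the 31 genes was -0.51, against -0.12 over all genes. At 1 h, 8 genes were lower and 0 higher, with 45.0% of all genes lower and 9.38% higher. At 3 d, 10 were lower and 3 higher (10.5% and 32.1% of all genes), and at 6 d, 18 were lower and 2 higher (10.2% and 34.1%). In the arms, 21 were lower and 4 higher in the abx-titled arm (43.9% and 26.5% of all genes), and 25 lower and 3 higher in the veh-titled arm (49.0% and 25.7%). The 4 higher genes of the abx-titled arm became 1 without biopsy 6, when only the groups compared were fitted, or with the replicate block.

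**Figure D1:**
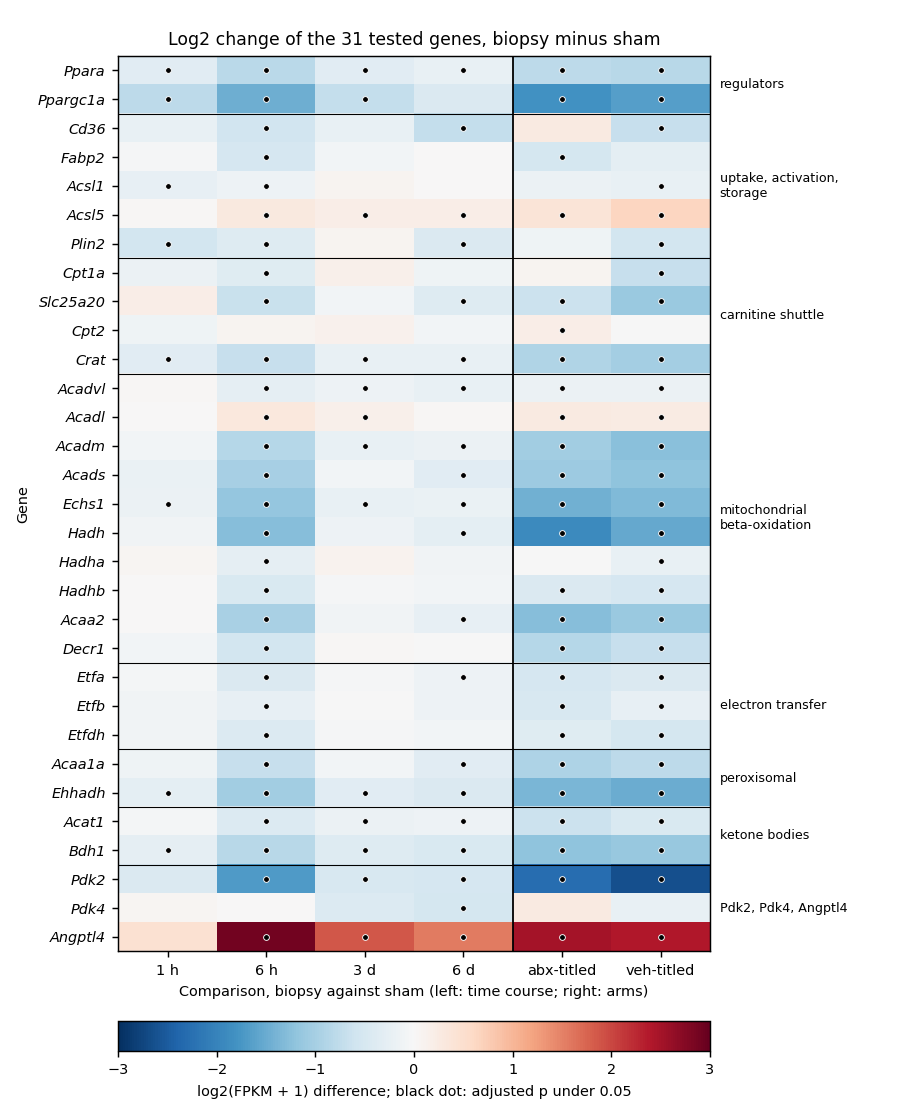
Log2(FPKM + 1) difference, biopsy minus sham, of the 31 genes tested (rows, grouped by role) in the 4 time points and the 2 arms (columns). Blue is lower and red higher in biopsies, and a black dot marks an adjusted p under 0.05; the 6 h, abx-titled and veh-titled columns are blue in most rows, and Angptl4 is the red row at the bottom.

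The 1 h count was below the background, and it depended on the scaling. Scaling by median of ratios moved the median of all genes at 1 h from -0.18 to -0.01. It gave 3 genes lower and 9 higher, where 22.9% and 19.3% of all genes were. The genes called lower at 1 h on the deposited scale were Ppara, Ppargc1a, Acsl1, Plin2, Crat, Echs1, Ehhadh and Bdh1, with differences from -0.17 for Echs1 to -0.78 for Ppargc1a. No gene was called higher by limma at 1 h, where 1246 of all genes were; with replicate number as a block, 1 was. At 3 d, 14 genes were lower and 1 higher with median of ratios (19.3% and 20.9% of all genes). With quantile normalization 17 were lower and 1 higher (24.7% and 19.1% of all genes).

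Ppara and Ppargc1a encode PPARα and PGC-1α, and both were lower at 1 h, 6 h and 3 d (Ppara at 6 d too, by -0.23). Ppargc1a was also lower in both arms. Ppara passed the filter there through its shams alone, so its lower arm values are a description. The 6 d call of Ppara was lost with a pseudocount of 0.1 (adjusted p = 0.0668) and without the B cell-rich libraries (0.14), and its 1 h call with quantile normalization (0.107). Ppargc1a (chr5:51454250-51567726, mm10) measured 3.87, 3.70, 2.41, 2.99 and 6.07 FPKM in the 6 h biopsies and 14.7, 14.4, 13.1, 8.81 and 9.54 FPKM in the 6 h shams. The groups did not overlap, and the biopsy closest to the shams was library 6. Its log2 difference at 6 h was -1.46 ± 0.19 (SE), with adjusted p = 3.7e-08. In the abx-titled arm it measured 2.58, 1.04, 1.03, 1.52 and 1.03 FPKM in biopsies, and shams ran from 5.64 over a median of 7.50 to 8.92 FPKM. In the veh-titled arm the biopsies ran from 0.967 over 1.22 to 1.70 FPKM and the shams from 5.03 over 6.52 to 7.04 FPKM. Biopsies lay below all shams in each arm, by -1.82 ± 0.14 and -1.64 ± 0.13 on the log2 scale. At 3 d the biopsies (6.15 to 8.99 FPKM) again lay below all shams (10.5 to 17.9 FPKM), a difference of -0.71 ± 0.18 with adjusted p = 0.00219. At 6 d the groups overlapped and the difference of -0.44 ± 0.19 was not called (adjusted p = 0.0645); Ppargc1a was called there without sham 2 (-0.53, adjusted p = 0.0319), with median of ratios (0.0348) and with quantile normalization (0.0167).

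Ppara was near the floor of the assay, at a median of 0.484 FPKM in 6 h biopsies and 1.50 FPKM in 6 h shams, with a difference of -0.80 ± 0.09. Both regulators also differed among shams over time. Ppargc1a was 3.48 to 8.12 FPKM in the 1 h shams, 8.81 to 14.7 FPKM at 6 h, 10.5 to 17.9 FPKM at 3 d and 7.29 to 13.8 FPKM at 6 d. The 1 h shams thus lay below all 6 h and 3 d shams, and limma gave adjusted p = 1.68e-05 for a difference among the 4 sham groups. Over the whole set, 20 of 31 genes (64.5%) differed among shams, close to the 59.0% of all genes that did.

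**Figure D2:**
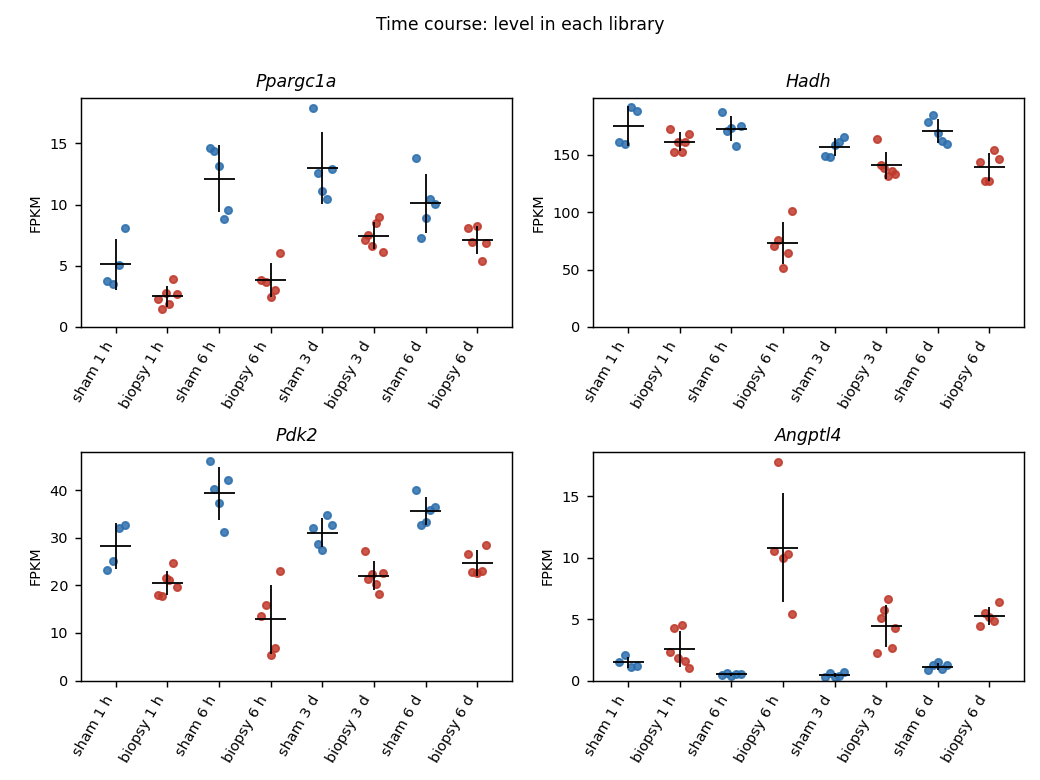
FPKM of Ppargc1a, Hadh, Pdk2 and Angptl4 in each library (points) of the time course, shams in blue and biopsies in red, with the group mean (horizontal line) and SD (vertical line). In the 6 h biopsies Ppargc1a, Hadh and Pdk2 sit below all 6 h shams and Angptl4 above them; the 1 h shams of Ppargc1a lie at 3.48 to 8.12 FPKM.

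Fatty acid uptake and storage genes moved in both directions. At 6 h all 5 tested were called: Cd36, Fabp2, Acsl1 and Plin2 were lower (4 of 5, where 43.2% of all genes were) and Acsl5 was higher. Their median difference was -0.38. Fabp2, the intestinal fatty acid binding protein, differed by -0.50 at 6 h and Acsl1, a long-chain acyl-CoA synthetase, by -0.16, a call lost with median of ratios and with quantile normalization. Acsl5, the acyl-CoA synthetase abundant in gut epithelium (chr19:55251938-55297720), measured 47.8, 41.1, 50.2, 46.3 and 48.9 FPKM in 6 h biopsies and 37.7, 38.0, 34.7, 39.7 and 40.6 FPKM in 6 h shams. Every biopsy was above every sham, by 0.29 ± 0.06 (adjusted p = 3.5e-05). Acsl5 was called higher at 3 d and 6 d as well, by 0.20 and 0.21, and in the abx-titled and veh-titled arms, by 0.38 and 0.64. The 3 d and 6 d calls did not hold with median of ratios scaling (adjusted p of 0.121 and 0.165), nor the abx-titled call without biopsy 6 (0.0516) or with the replicate block (0.0584).

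Plin2, which coats lipid droplets, was called lower at 1 h, 6 h and 6 d. It ran from 75.1 over a median of 87.8 to 103 FPKM in the 1 h biopsies and measured 107, 122, 156 and 140 FPKM in the 1 h shams. The groups did not overlap, and the difference was -0.55 ± 0.12 (adjusted p = 0.000176). At 6 h it was called lower by -0.38 but the groups overlapped, and with median of ratios the call was lost (adjusted p = 0.0762). At 3 d it was not called (0.08), and at 6 d the biopsies (94.2 to 109 FPKM) lay below all shams (125 to 152 FPKM). Cd36, a membrane fatty acid translocase also expressed by macrophages, endothelium and adipocytes, was lower at 6 h by -0.57 and at 6 d by -0.73. At 6 d it measured 2.58, 2.25, 3.12, 2.68 and 1.86 FPKM in biopsies and 4.23, 4.82, 4.67, 5.03 and 4.996 FPKM in shams, with no overlap (adjusted p = 5.15e-05). Summed macrophage markers ran from 178 to 260 FPKM in the 6 d biopsies and 143 to 172 FPKM in the 6 d shams. Summed endothelial markers ran from 46.1 to 58.0 and 20.0 to 29.6 FPKM. Both sums were higher where Cd36 was lower. Of single markers, 1 of 6 macrophage markers and 5 of 5 endothelial markers were called higher at 6 d, and 0 lower. At 6 h macrophage markers ran from 68.2 to 101 FPKM in biopsies and 92.6 to 152 FPKM in shams, with 4 of 6 lower and 2 higher. In the veh-titled arm the macrophage sum was 36.4 to 41.5 FPKM in biopsies and 79.2 to 95.8 FPKM in shams. The endothelial sum was 9.22 to 13.9 and 15.3 to 19.1 FPKM, and both sums were lower together with Cd36. Of 6 macrophage markers 4 were called lower and 1 higher there, and of 5 endothelial markers 4 lower and 0 higher. The part of these cells in the Cd36 differences was not tested.

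The carnitine shuttle did not move as a block. Cpt1a encodes carnitine palmitoyltransferase 1, which commits long-chain acyl groups to mitochondrial import, Slc25a20 the carnitine-acylcarnitine carrier, Cpt2 the inner-membrane transferase, and Crat the short-chain carnitine acetyltransferase. At 6 h Cpt1a, Slc25a20 and Crat were lower, by -0.37, -0.67 and -0.69, while Cpt2 was 0.09 and not called. Slc25a20 (chr9:108662088-108684641) measured 58.4, 65.1, 40.9, 53.5 and 94.7 FPKM in 6 h biopsies and 128, 89.9, 89.9, 74.8 and 108 FPKM in 6 h shams. Biopsy 6 overlapped the shams and the other 4 lay below them (difference -0.67 ± 0.15, adjusted p = 0.000157). Crat was called lower in all 6 biopsy comparisons, from -0.23 at 3 d and 6 d to -1.02 in the veh-titled arm, with no overlap between biopsies and shams in any. At 1 h its difference of -0.34 stood beside a median of -0.18 over all genes, and Crat was not called there with median of ratios (adjusted p = 0.0681) or quantile normalization (0.0716).

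Among the 10 mitochondrial beta-oxidation enzymes, 9 fell and 1 rose at 6 h, or 90.0% lower against 43.2% of all genes. Hadh, the short-chain 3-hydroxyacyl-CoA dehydrogenase (chr3:131233419-131272101), measured 71.0, 75.9, 51.5, 64.6 and 101 FPKM in 6 h biopsies and 188, 171, 173, 158 and 175 FPKM in 6 h shams. All biopsies lay below all shams, with library 6 the nearest, and the difference was -1.27 ± 0.10 (adjusted p = 9.99e-14). Echs1, the short-chain enoyl-CoA hydratase, measured 38.8, 40.8, 34.6, 42.7 and 51.2 FPKM against 103, 90.1, 90.7, 82.6 and 101 FPKM. Its difference of -1.16 ± 0.07 (adjusted p = 6.86e-16) had the smallest adjusted p of the set at 6 h. Acaa2, the mitochondrial 3-ketoacyl-CoA thiolase, measured 35.0, 35.0, 28.0, 34.8 and 46.1 FPKM against 71.4, 76.5, 71.6, 66.1 and 68.0 FPKM. It too showed no overlap (-0.98 ± 0.09, adjusted p = 4.22e-11). In the arms Hadh ran from 18.2 to 26.6 FPKM in abx-titled biopsies and 64.1 to 93.4 FPKM in their shams, and from 24.0 to 35.5 and 82.5 to 96.8 FPKM in the veh-titled arm. Neither arm's groups overlapped, and the differences were -1.90 ± 0.11 and -1.54 ± 0.10. Acads and Acadm, the short- and medium-chain acyl-CoA dehydrogenases, fell by 1.00 and 0.87 on the log2 scale, and Decr1, the dienoyl-CoA reductase needed for unsaturated chains, by 0.56.

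Among enzymes that act on long chains, Acadvl, the very long-chain acyl-CoA dehydrogenase, and Hadha and Hadhb, the subunits of the mitochondrial trifunctional protein, differed by -0.26, -0.26 and -0.46 at 6 h, and the Hadha call was lost with median of ratios. Acadl, the long-chain acyl-CoA dehydrogenase (chr1:66830839-66863277), measured 114, 99.4, 103, 95.7 and 110 FPKM in 6 h biopsies and 81.7, 92.9, 82.2, 82.2 and 79.6 FPKM in 6 h shams. Every biopsy was above every sham (0.31 ± 0.06, adjusted p = 9.5e-06). Acadl was also higher at 3 d, by 0.14, a call lost with median of ratios, quantile normalization or any of 5 single libraries left out (biopsies 2, 3 and 4, shams 2 and 4; adjusted p up to 0.144). In the arms it was higher by 0.28 and 0.24. Those arm calls rested on single libraries: they were lost without abx-titled biopsy 6 and without veh-titled sham 1 (adjusted p of 0.0521 for each), and with the replicate block (0.0527 and 0.0506).

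A within-library contrast sets these enzymes side by side. For each library the mean log2(FPKM + 1) of Cpt2, Acadvl, Acadl, Hadha and Hadhb, which act on long chains, was subtracted from that of Acadm, Acads, Echs1, Hadh and Acaa2, which act on short and medium chains. The gene sets were drawn after their values were seen, so the contrast is a description with no test, and it is not altered by a scaling factor per library except through the pseudocount. In 6 h shams it ran from 0.70 to 0.79, and in 6 h biopsies from -0.45 to 0.07. In the abx-titled arm it was 0.26 to 0.89 in shams and -0.85 to -0.40 in biopsies, and in the veh-titled arm 0.58 to 0.80 and -0.60 to -0.29. Shams and biopsies did not overlap in any of these 3 comparisons. Because the sets were drawn after values were seen, the arms are no independent check. How often other gene sets would separate the groups was not counted. Cpt1a and Slc25a20, which also handle long chains and were lower at 6 h in the time course, are not in the set. Cpt2, which was not called there, is. In the abx-titled arm Cpt1a was not called (0.09) and Cpt2 was called higher by limma (0.21, adjusted p = 0.0434). That Cpt2 call was lost with no filter, the compared groups alone, the replicate block or without the B cell-rich libraries (0.0567 to 0.132). With Cpt1a and Slc25a20 added the contrast was 0.53 to 0.62 in 6 h shams and -0.40 to -0.08 in 6 h biopsies, and without Cpt2 it was 0.51 to 0.60 and -0.60 to -0.09. At 1 h (biopsies 0.40 to 0.50, shams 0.45 to 0.73), 3 d (0.29 to 0.64 and 0.55 to 0.82) and 6 d (0.33 to 0.50 and 0.49 to 0.70) the ranges overlapped, except at 1 h without Cpt2 (0.25 to 0.30 and 0.33 to 0.55).

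**Figure D3:**
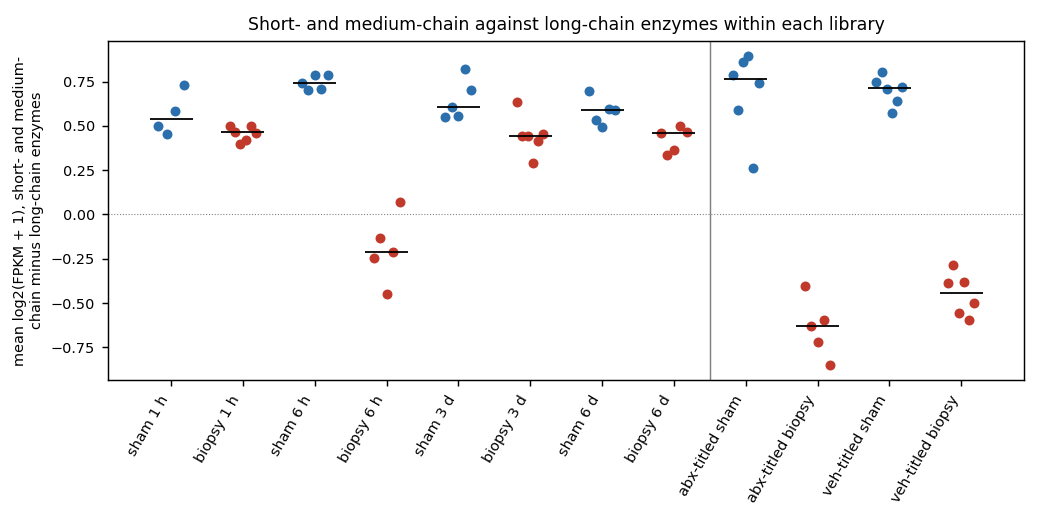
Mean log2(FPKM + 1) of Acadm, Acads, Echs1, Hadh and Acaa2 minus that of Cpt2, Acadvl, Acadl, Hadha and Hadhb in each library (points; shams blue, biopsies red; line, median), by group of the time course (left of the grey line) and the arms (right). The 6 h biopsies (-0.45 to 0.07) and both arms' biopsies lie below their shams, while the 1 h, 3 d and 6 d groups overlap.

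Electron transfer, peroxisomal and ketone body genes fell with the short-chain enzymes at 6 h. Etfa and Etfb, the subunits of electron transfer flavoprotein, and Etfdh, the oxidoreductase that passes its electrons to ubiquinone, differed by -0.43, -0.24 and -0.42, the Etfb call being lost with median of ratios. In the peroxisome, Ehhadh, the bifunctional enzyme and a known PPARα target, differed by -1.03, and Acaa1a, the peroxisomal thiolase, by -0.69. Acat1, the mitochondrial acetoacetyl-CoA thiolase, and Bdh1, which interconverts acetoacetate and 3-hydroxybutyrate, differed by -0.42 and -0.83. Bdh1 was called lower in all 6 biopsy comparisons with no overlap between biopsies and shams in any, at a median of 27.4 FPKM in 6 h biopsies and 48.7 FPKM in 6 h shams. The 1 h call of Bdh1 was lost with median of ratios (adjusted p = 0.457). Acaa1a has a near-identical copy, Acaa1b, and the counting could split reads between them.

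At 6 h and in both arms, the fuel-choice genes held the largest changes in both directions. The largest fall was that of Ppargc1a at 1 h (-0.78) and 3 d (-0.71) and of Cd36 at 6 d (-0.73). Pdk2 encodes a pyruvate dehydrogenase kinase, which restrains the entry of pyruvate into the citric acid cycle. Pdk2 (chr11:95026258-95041354) measured 13.5, 15.8, 5.27, 6.75 and 23.1 FPKM in 6 h biopsies and 46.1, 40.2, 37.3, 31.2 and 42.2 FPKM in 6 h shams. No biopsy reached a sham, though the biopsies themselves spread widely, with library 4 the lowest and library 6 the highest. The difference was -1.70 ± 0.20 (adjusted p = 2.65e-09). In the abx-titled arm it measured 4.90, 3.02, 2.63, 4.16 and 2.26 FPKM in biopsies, with shams from 13.3 over 20.7 to 26.4 FPKM. In the veh-titled arm biopsies ran from 2.19 over 2.42 to 3.28 FPKM and shams from 19.2 over 21.2 to 22.8 FPKM. The differences were -2.28 ± 0.14 and -2.63 ± 0.14, the largest falls of the set in each arm. At 3 d and 6 d no biopsy overlapped a sham (18.2 to 27.3 against 27.4 to 34.7 FPKM, and 22.5 to 28.6 against 32.7 to 40.0 FPKM), yet the differences of -0.48 and -0.51 passed the test narrowly. Leaving out any of biopsies 2, 3, 4 and 5 or shams 1, 4 and 5 at 3 d raised the adjusted p to 0.0517 to 0.0785. The same held at 6 d for biopsies 2, 3 and 4 and shams 1, 4 and 5 (0.0521 to 0.0731).

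Pdk4, the isoform classically induced by fasting and PPARα, was rare (median 0.799 FPKM in 6 h biopsies and 0.522 FPKM in 6 h shams) and differed by 0.02 at 6 h. It was called only at 6 d, at 0.483, 0.739, 0.472, 0.273 and 0.506 FPKM in biopsies and 0.803, 0.953, 1.24, 1.37 and 1.41 FPKM in shams. The groups did not overlap (-0.52 ± 0.19, adjusted p = 0.0238), but the call was lost without biopsy 4, sham 4 or sham 5 (0.0526 to 0.0614). At 3 d its difference of -0.41 was not called, but was without biopsy 6, sham 1 or sham 3 (0.0287 to 0.0457).

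Angptl4, a secreted inhibitor of lipoprotein lipase induced by fatty acids, fasting and hypoxia (chr17:33773750-33781830), rose against the direction of the pathway. It measured 10.5, 17.8, 9.95, 10.3 and 5.42 FPKM in 6 h biopsies and 0.422, 0.609, 0.358, 0.555 and 0.549 FPKM in 6 h shams. All biopsies were far above all shams, with library 3 the highest, and the difference was 2.90 ± 0.23 (adjusted p = 4.19e-13). Adipocytes also express Angptl4, and the adipocyte marker sum ran from 2.18 over 3.43 to 126 FPKM in 6 h biopsies, with library 3 the highest, and from 0.483 to 0.785 FPKM in 6 h shams, with no overlap. Of the 6 markers 3 could be tested and 1 was called higher, and Adipoq, a defining marker, was listed at 0 in 3 of the 5 biopsies and all 5 shams. Without library 3 the Angptl4 difference was 2.71; the part of adipocytes in it was not tested. At 1 h the biopsies ran from 1.04 over 2.09 to 4.53 FPKM and the shams from 1.14 to 2.11 FPKM, an overlap, and the difference of 0.45 was not called (adjusted p = 0.106). It was called without biopsy 6 (0.0298), with median of ratios (0.0426), quantile normalization (0.0139) and the replicate block (0.0308). Angptl4 was also higher at 3 d (2.25 to 6.67 against 0.256 to 0.670 FPKM, a difference of 1.86 ± 0.22) and at 6 d (4.45 to 6.37 against 0.857 to 1.47 FPKM, 1.55 ± 0.23). In the arms the biopsies measured 5.20 to 9.91 and 2.78 to 8.75 FPKM, above all shams at 0.0814 to 0.680 and 0.138 to 0.611 FPKM, with differences of 2.50 and 2.40. In the arms the gene passed the filter through its biopsies alone, so these differences are a description. With a pseudocount of 0.1 the arm differences were 4.14 and 4.02.

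Between neighbouring times the change of effect was tested directly. From 1 h to 6 h, 23 of 31 genes changed effect (46.9% of all genes did, in either direction), 20 of them towards lower. The median change of effect was -0.37 for the set and 0.08 over all genes. The largest changes were those of Angptl4 (2.45), Pdk2 (-1.26), Hadh (-1.15) and Acaa2 (-0.99), each with an adjusted p of 0.000402 or less. From 6 h to 3 d, 24 of 31 changed (52.2% of all genes, in either direction), 23 upwards. The median change was 0.44 for the set and 0.19 over all genes, so all genes moved upwards as well. With median of ratios 16 changed (42.2% of all genes), and the median over all genes was 0.01. The share of all genes moving in each direction is not given for either step. The changes were led by Pdk2 (1.22), Hadh (1.11) and Echs1 (0.92), while Angptl4 moved down (-1.03). From 3 d to 6 d limma called 0 of 31 (1.84% of all genes). Leaving out biopsy 5 or sham 1 of the 3 d group gave 1 call each, of Cd36 (-0.64) and Plin2 (-0.61). Slc25a20 was called lower at 6 d (-0.39) but not at 3 d (-0.09). The 6 d call was lost without any of 5 libraries (biopsies 2, 4 and 5, shams 2 and 3; adjusted p of 0.0538 to 0.0854). Its biopsies covered 95.8 to 113 FPKM at 3 d and 102 to 115 FPKM at 6 d, and its shams 99.4 to 148 and 128 to 165 FPKM. By the estimate of relative depth the 6 d shams were the shallowest group, at a mean of 1.07 times the shallowest library. The part of depth in the 6 d differences was not tested.

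The 6 d count rested in part on a few libraries. With the B cell-rich libraries left out, 11 genes were lower at 6 d, against 18 with them, and leaving out biopsy 2 or biopsy 3 alone gave 12. The share of all genes lower without these libraries is not given. The count also moved with the scaling. With median of ratios 24 were lower and 1 higher (17.1% and 20.4% of all genes). With quantile normalization 23 were lower and 2 higher (20.8% and 18.5% of all genes). Genes of the set that did not overlap between 6 d biopsies and shams included Ehhadh, Bdh1, Acaa1a, Crat, Acadvl, Hadh and Echs1, with log2 differences between -0.45 and -0.19. Cd36, Pdk2, Pdk4, Plin2 and Slc25a20 also lay below all shams there, and Acsl5 and Angptl4 above them. The share of all genes without overlap was not counted, here or in the other comparisons. The calls of Hadh, Echs1, Pdk2 and Slc25a20 at 6 d were lost without the B cell-rich libraries. Markers of mature surface colonocytes fell at the same time: 4 of 5 markers at 3 d and 5 of 5 at 6 d, the sum being 1314 to 2014 FPKM in biopsies and 2862 to 6933 FPKM in shams at 3 d, and 844 to 1299 and 3138 to 3763 FPKM at 6 d. Their part in the 3 d and 6 d differences was not tested.

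At 6 h the markers stood otherwise. The surface colonocyte sum was 4422 to 5190 FPKM in biopsies and 3668 to 4223 FPKM in shams, with 1 of 5 markers lower and 1 higher. General colon epithelium markers were higher in 7 of 9, with sums of 10840 to 12540 and 5813 to 6868 FPKM. Neutrophil markers were higher in 6 of 6, with sums of 340 to 834 FPKM in biopsies and at most 1.60 FPKM in shams. In each arm 8 of 9 epithelium markers were higher and 1 lower, and 6 of 6 neutrophil markers were higher. The surface colonocyte sum was 989 to 1312 FPKM in abx-titled biopsies and 1461 to 2087 FPKM in their shams, with no overlap, and 1804 to 2471 and 2199 to 2669 FPKM in the veh-titled arm, with overlap; 1 of 5 markers was called lower in each arm. The part of these cell types in the changes of the pathway was not tested.

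The biopsy effect on the set differed little between the arms, with 2 of 31 genes called, Cpt1a and Cd36 (3.31% of all 11849 genes were). Cpt1a (chr19:3322334-3385733) measured 26.4, 21.4, 33.7, 26.4 and 31.7 FPKM in abx-titled biopsies, and the abx-titled shams ran from 20.1 over 27.6 to 30.9 FPKM. In the veh-titled arm biopsies ran from 19.0 over 21.6 to 22.8 FPKM and shams from 33.6 over 34.5 to 37.5 FPKM. The abx-titled groups overlapped and the veh-titled groups did not. The differences were 0.09 and -0.69, and their difference of 0.77 ± 0.14 was called (adjusted p = 0.00547; 0.00222 to 0.0237 over its alternatives).

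Cd36 behaved alike in the veh-titled arm, where biopsies ran from 1.05 over 1.27 to 2.15 FPKM and shams from 2.45 over 2.81 to 3.08 FPKM. In the abx-titled arm it measured 1.90, 1.68, 5.01, 1.92 and 2.26 FPKM in biopsies, and shams ran from 1.36 over 1.88 to 2.11 FPKM. Biopsy 4 lay far above the abx-titled shams, and the other 4 lay near them. The difference of effect was 0.97 ± 0.21 (adjusted p = 0.0126), 0.76 without abx-titled biopsy 4 (0.00579), and it was lost with the replicate block (0.0597). Plin2, Pdk4 and Slc25a20 showed differences of effect of 0.42, 0.48 and 0.47 that were not called. Plin2 was called without abx-titled biopsy 2 (adjusted p = 0.0425).

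**Figure D4:**
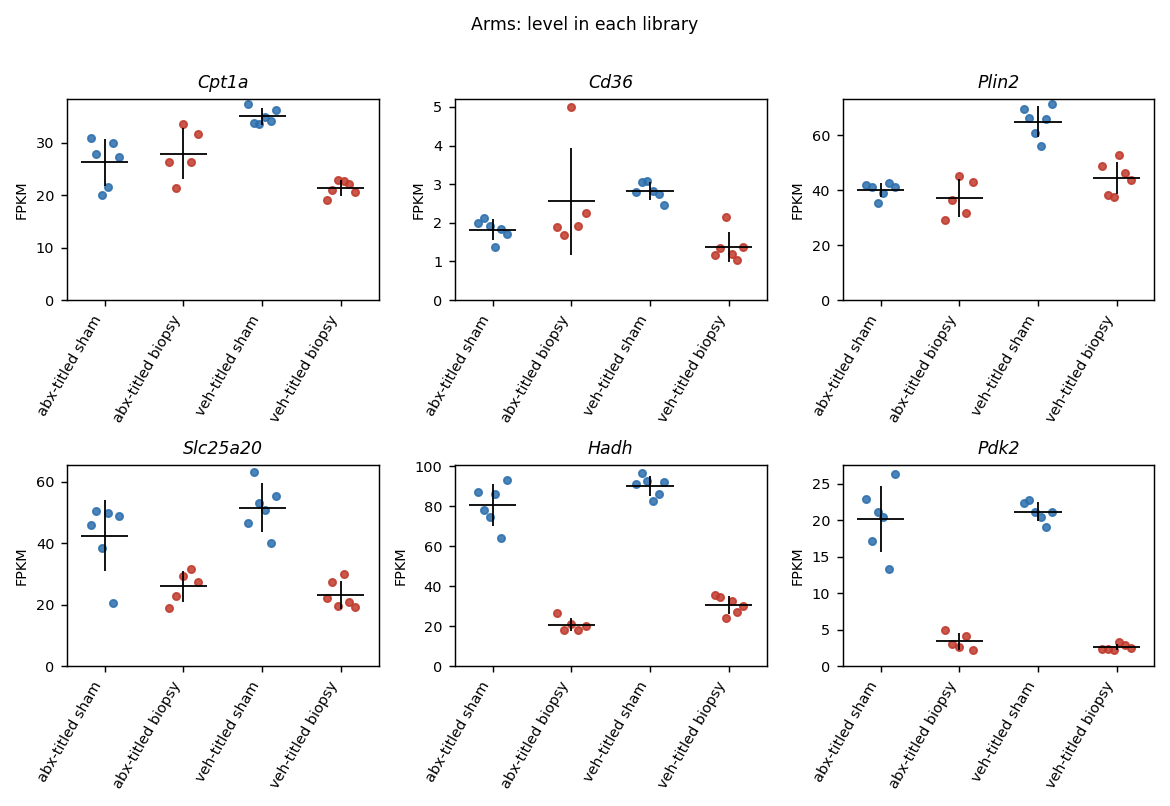
FPKM of 6 genes in each library (points) of the abx-titled and veh-titled arms, shams in blue and biopsies in red, with group mean and SD (lines). Veh-titled shams of Cpt1a, Cd36 and Plin2 lie above the abx-titled shams with no overlap, while Hadh and Pdk2 are low in the biopsies of both arms.

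The shams of the arms differed at 6 of 31 genes (12.6% of all genes), and at 3 without abx-titled sham 3 or any of veh-titled shams 2, 3, 5 and 6. Plin2 ran from 35.3 to 42.5 FPKM in abx-titled shams (mean 40.1 ± 2.61, SD, n = 6) and from 55.9 over 66.1 to 71.2 FPKM in veh-titled shams, a difference of -0.68 ± 0.10 (adjusted p = 8.16e-05) with no overlap. Cpt1a (-0.42), Cd36 (-0.44), Hadha (-0.23) and Acads (-0.23) were also lower in abx-titled shams and Crat was higher (0.25). The Cd36 call was lost when any of 10 of the 12 shams was left out (adjusted p of 0.0506 to 0.0971). The biopsies of the arms differed at 7 of 31 (15.0% of all genes): Hadh (-0.54), Acat1 (-0.31), Acaa1a (-0.28) and Decr1 (-0.25) were lower in abx-titled biopsies, and Cd36 (0.53), Cpt1a (0.35) and Crat (0.35) were higher. The Cpt1a call was lost without abx-titled biopsy 4 or 6 or veh-titled biopsy 1 or 6 (adjusted p of 0.0504 to 0.0854), and the Cd36 call when only the groups compared were fitted (0.0911). For Hadh the abx-titled biopsies measured 26.6, 18.2, 21.1, 18.3 and 20.2 FPKM, and the veh-titled biopsies ran from 24.0 over 31.4 to 35.5 FPKM. Their ranges overlapped through abx-titled biopsy 2, and the test gave adjusted p = 0.00175.

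Further genes of the pathway, were taken from a list of 34. At 6 h 29 were lower and 1 higher (85.3% lower, against 43.2% of all genes). At 1 h 16 were lower and 1 higher, and the 47.1% lower was near the 45.0% of all genes. At 3 d 10 were lower and 7 higher (29.4% and 20.6%, against 10.5% and 32.1% of all genes), and at 6 d 12 and 3 (35.3% and 8.8%, against 10.2% and 34.1%). In the arms, where 31 were tested, 28 were lower and 2 higher in each (90.3% lower, against 43.9% and 49.0%). Mlycd, which removes the malonyl-CoA that inhibits CPT1, led at 1 h, at 5.23 to 7.55 FPKM in biopsies and 13.6 to 15.6 FPKM in shams (-1.12 ± 0.07, adjusted p = 2.74e-15).

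Acad11, an acyl-CoA dehydrogenase, fell by 1.02 on the log2 scale at 6 h, by 1.33 in the abx-titled arm and by 1.50 in the veh-titled arm. Decr2, the peroxisomal dienoyl-CoA reductase, fell by 1.11 and 1.10 in the arms. Acsl4, which activates arachidonate, rose by 1.05 in the abx-titled arm. In the veh-titled arm Pdk1 fell by 1.36 and Ppargc1b, the relative of Ppargc1a, by 1.00. At 6 d the one gene of this list with a change of at least 1 was Lpl, the lipoprotein lipase that Angptl4 inhibits, at 5.29 to 6.07 FPKM in biopsies and 1.61 to 4.26 FPKM in shams (1.06 ± 0.16, adjusted p = 3.66e-06). Its highest 6 d sham was at 4.26 FPKM, and all biopsies lay above it.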

How the data were processed

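Colon biopsy and sham libraries (64 in all) were prepared with the RNeasy and TotalScript kits after poly(A) selection, per the labels' protocols. The deposited values are the authors' FPKM per gene symbol; STAR, Cufflinks and mm10 are named in the submitters' processing notes, with versions and annotation not given in the sources used here. Read counts were not used, so no counting interval is given and depth is only estimated, as a ratio between libraries. Coordinates are from GENCODE vM21 (mm10).

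FPKM were transformed to log2(FPKM + 1) and a gene was kept if 4 or more of a cohort's libraries reached 1 FPKM (13285 in the time course, 11849 in the arms). The cohorts were fitted apart with limma 3.58.1 in R 4.3.3, with 1 mean per group, a mean-variance trend and Benjamini-Hochberg adjustment within each comparison; SE is the moderated standard error. The model was tested on simulated data. Other settings tried were no filter, a stricter one of 5 FPKM, a pseudocount of 0.1, median of ratios scaling, quantile normalization, the compared groups alone, a replicate block and each library left out; after the data were seen, libraries with adipocyte or B cell marker sums above 30 FPKM were also left out, and the chain-length contrast was repeated with other long-chain sets.

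The members and lists were chosen with earlier results of these data known. Each of the 32 genes is named at least once. Values per library are given for those among the 4 largest changes of a comparison or called against most of their role list, and further pathway genes are named if called with a log2 change of at least 1, at most 4 a comparison. A few other genes (Echs1, Acaa2) are given in the same detail because their effect changed between times. One further pathway gene that meets this rule is not reported here.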

Additional observations from a re-analysis of the deposited data

Results flagged for a closer look

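Of 156 checks of a single library against the rest of its group, 13 stood apart, where chance gives about 1 in 20. Cd36 did so in 3 groups. It was 5.01 FPKM in abx-titled biopsy 4 (others 1.68 to 2.26), 2.15 FPKM in veh-titled biopsy 3 (others 1.05 to 1.36) and 2.41 FPKM in 6 h sham 4 (others 3.45 to 3.95). Abx-titled biopsy 4 was also apart for Angptl4, at 9.91 FPKM (others 5.2 to 6.01).

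Sham 1 at 3 d stood apart for Slc25a20, at 148 FPKM (others 99.4 to 102), and for Cpt1a, at 68.3 FPKM (others 55.2 to 58.2). Slc25a20 was 20.7 FPKM in abx-titled sham 5 (others 38.5 to 50.6). Acaa2 was 84.3 FPKM in 1 h biopsy 1 (others 68.9 to 73.8) and 14.7 FPKM in veh-titled biopsy 5 (others 17.9 to 20.0). Acadl was 92.9 FPKM in 6 h sham 2 (others 79.6 to 82.2), and Hadh 164 FPKM in 3 d biopsy 1 (others 132 to 141). Pdk4 was 0.782 FPKM in 3 d biopsy 6 (others 0.337 to 0.489) and 1.12 FPKM in veh-titled sham 2 (others 0.414 to 0.626).

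The biopsy effect differed between 1 h and 6 h, by the test of the difference, for Acaa2 (-0.99), Angptl4 (2.45), Hadh (-1.15) and Pdk2 (-1.26). Between 6 h and 3 d it differed for Angptl4 (-1.03), Echs1 (0.92), Hadh (1.11) and Pdk2 (1.22). Between the arms it differed for Cd36 (0.97) and Cpt1a (0.77).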

How the results depend on the processing

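Median of ratios scaling reversed the sign of Acat1 (0.14), Echs1 (0.031) and Etfa (0.14) at 1 h, and of Etfb from 6 h to 3 d (-0.0069); the cause was not tested. It gave 3 genes lower and 9 higher at 1 h, 1 higher at 3 d and at 6 d, and 3 differing between the arms' shams. Quantile normalization gave 1 higher at 1 h, and 17 lower and 1 higher at 3 d. The replicate block gave 1 higher at 1 h and in the abx-titled arm, and 1 difference of effect between arms. A filter of 5 FPKM gave 1 difference between arms, and the compared groups alone 1 higher in the abx-titled arm. Without adipocyte-rich libraries the arms' shams differed at 3 genes; without B cell-rich libraries they differed at 3, and 11 genes were lower at 6 d. With 1 library left out, counts ran from 0 to 1 for higher at 1 h, 12 to 18 for lower at 6 d, 0 to 1 for 6 d against 3 d, 1 to 5 for higher in the abx-titled arm and 3 to 6 for the arms' shams. The 6 h counts with 1 library left out ran from 25 to 26 lower, with 3 higher each time. With median of ratios the 6 h counts were 22 lower and 4 higher (33.7% and 31.6% of all genes). Of 2483 values of the 13 genes given in full, 2388 kept their side of the threshold and 0 reversed.

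Deviations from the group mean were correlated between same-numbered biopsies and shams. The correlations ran from -0.197 to 0.128 over 18 time-course pairs and from -0.282 to 0.254 over 11 arm pairs. A library correlated best with its own number in 4 and 1 of them. These values cannot show whether same-numbered samples came from 1 animal. The block could not be fitted for shams or biopsies between arms. Read depth is unknown, which bears on Ppara, Pdk4, Angptl4 and Cd36, whose values lie near 1 FPKM in some groups.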

Other observations

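Among the 6 h biopsies, library 6 lay nearest the shams for Ppargc1a (6.07 FPKM), Hadh (101 FPKM), Pdk2 (23.1 FPKM), Slc25a20 (94.7 FPKM), Acaa2 (46.1 FPKM), Echs1 (51.2 FPKM) and Angptl4 (5.42 FPKM). Abx-titled biopsy 4 was the highest of its group for Cd36 (5.01 FPKM), Angptl4 (9.91 FPKM) and Pdk4 (1.65 FPKM).

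Shams of different times were not alike. Angptl4 was 1.14 to 2.11 FPKM in the 1 h shams, 0.358 to 0.609 FPKM at 6 h, 0.256 to 0.670 FPKM at 3 d and 0.857 to 1.47 FPKM at 6 d.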
